A study of Sus scrofa with 21 samples.

Results

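Genes that mark spermatogonia, the germ cells from which sperm production starts, were followed in testis tissue of 21 boars. The set was given by symbol and holds 10 genes, of which 9 were found among the 25880 genes counted in each library. These were ZBTB16, GFRA1, RET, UCHL1, NANOS2 and NANOS3 of undifferentiated spermatogonia, and KIT, STRA8 and DMRT1 of the step towards differentiation and meiosis. SALL4 was not analysed here. The boars were 13 Landrace and 8 Duroc animals that served at an artificial insemination station, whose testes were frozen at slaughter, and 1 library was made per boar. They were chosen in the study for high or low sperm hyperactivity, the vigorous asymmetric swimming that sperm show when they are ready to fertilise. In Landrace, contrast (i) set 4 boars with high hyperactivity on the day of ejaculation (day 0) against 4 with low hyperactivity, and contrast (iii) set 3 boars with a high change between day 0 and 96 h of liquid storage against 4 with a low change. Boar L2 belonged to the low group and boar L7 to the high group of both contrasts. In Duroc, 5 boars were labelled high and 3 were labelled low.

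In the boar, as in other mammals, undifferentiated spermatogonia lie on the basement membrane of the seminiferous tubule. GDNF from Sertoli and peritubular cells acts on them through the co-receptor GFRA1 and the receptor tyrosine kinase RET and keeps them in the stem cell state. Retinoic acid then moves them into differentiation, when the receptor KIT and its ligand KITLG come into play, and later turns on STRA8 at the entry into meiosis. Outside the germ line, KIT is also made by Leydig cells, mast cells and melanocytes, and in pigs it is known as the dominant white coat colour gene, of which white breeds carry duplicated alleles. The KIT genotype of the boars was not analysed here.

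Each library held between 41358671 and 125576407 counts on genes, from 47988011 to 97059970 in Landrace and from 41358671 to 125576407 in Duroc. Levels are given in CPM, the count of a gene scaled to a library of standard size with TMM factors (trimmed mean of M-values). Markers of testis cells were present in every boar. The sum of 7 spermatid markers ran from 4643 to 10508 CPM, that of 8 spermatocyte markers from 1263 to 2725 CPM, that of 6 Leydig cell markers from 610 to 4623 CPM and that of 9 Sertoli cell markers from 197 to 528 CPM, with AMH at 0 in every boar. Boar L13 stood apart with the highest sums of Sertoli cell, macrophage and nerve markers, 528, 219 and 360 CPM. Because whole tissue was sequenced, fewer spermatogonia and less RNA per spermatogonium cannot be told apart in any value below. Nor can RNA of the same gene from other cells, or a changed share of other cells, be separated from them. The deposited labels of the Duroc boars were the opposite of the groups the study's own table gives under the same names for 7 of the 8 boars, so high and low in Duroc are those of the labels, and a direction drawn from them may be inverted.

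The stem cell genes other than NANOS2 had counts in every boar. ZBTB16 (ENSSSCG00000030095, chr9:41639536-41839254), a transcriptional repressor needed for self-renewal, had a lowest value of 7.55, a median of 10.6 and a highest value of 15.1 CPM over the 21 boars. UCHL1 (ENSSSCG00000022945, chr8:32353766-32367288), a ubiquitin hydrolase used to stain pig spermatogonia, had a lowest value of 1.3, a median of 2.47 and a highest value of 3.66 CPM. RET (ENSSSCG00000010199, chr14:61305818-61361416) had a lowest value of 0.414, a median of 1.13 and a highest value of 2.40 CPM. GFRA1 (ENSSSCG00000010655, chr14:126273558-126499957) had a lowest value of 0.265, a median of 0.581 and a highest value of 1.64 CPM, which corresponded to 16 to 176 counts. Positions are those of RefSeq on Sscrofa11.1. Levels of different genes are not set against each other here, because no transcript lengths were used.

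Both NANOS genes, RNA-binding regulators of the germ line, were at the limit of detection. NANOS2 (ENSSSCG00000003096, chr6:52218889-52219834) had 0 counts in all 21 libraries, which allows a level of up to 0.0244 to 0.0616 CPM, depending on the library (3 counts, counting error only). NANOS3 (ENSSSCG00000013759) had from 1 to 20 counts, with a median of 4 counts. A difference in NANOS2 was not detectable at this depth, and NANOS3 was tested with a lower filter in the comparisons of breeds and of Duroc boars only.

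Of the genes of the next step, KIT (ENSSSCG00000008842, chr8:41402334-41492306) had a lowest value of 13.1, a median of 24.7 and a highest value of 83.9 CPM. STRA8 (ENSSSCG00000016533, chr18:14055258-14080399), which meiotic entry requires, had a lowest value of 1.01, a median of 1.98 and a highest value of 2.94 CPM. DMRT1 (ENSSSCG00000005236, chr1:220841485-220953442), a transcription factor of spermatogonia and Sertoli cells, had a lowest value of 34.6, a median of 45.6 and a highest value of 67.8 CPM. The KIT level thus ranged over 6.39-fold between boars, whereas DMRT1 ranged over 1.96-fold and ZBTB16 over 2-fold.

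**Figure D1:**
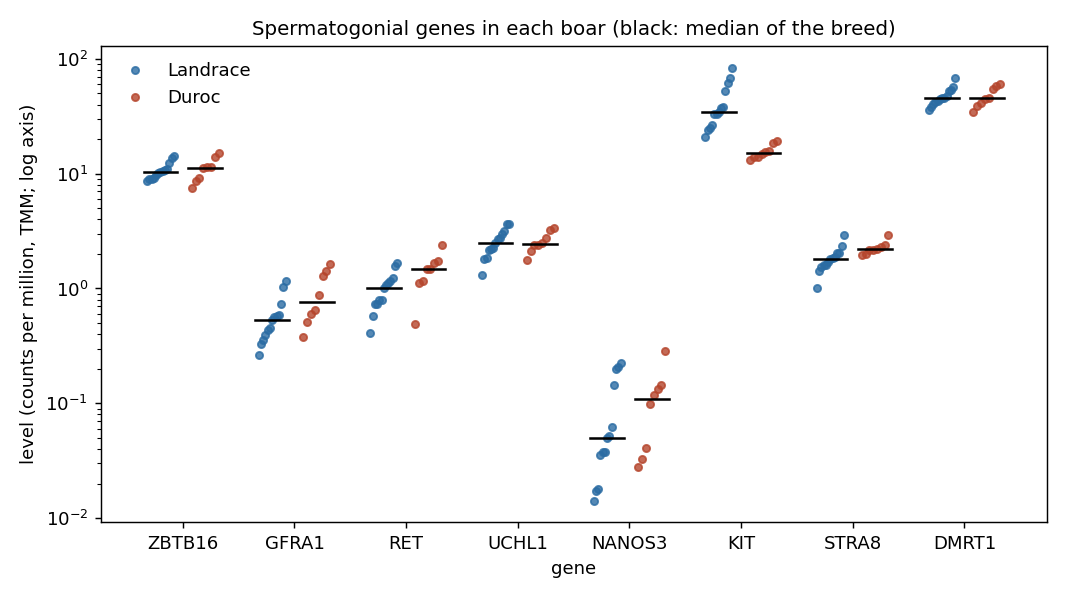
Level of 8 genes in each of 13 Landrace (blue) and 8 Duroc boars (red) in CPM on a log axis, with the median of each breed as a black line. NANOS2 is left out because it had 0 counts in every boar. The KIT points of the 2 breeds do not overlap, while those of the other 7 genes do.

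The comparison of breeds set all 8 Duroc boars against all 13 Landrace boars. KIT was lower in Duroc, and it was the only gene of the set that passed the test. In Landrace the KIT level had a lowest value of 21, a median of 34.5 and a highest value of 83.9 CPM, and in Duroc a lowest value of 13.1, a median of 15.1 and a highest value of 19.3 CPM. Every Duroc boar was below every Landrace boar. The means were 41.5 ± 19.3 CPM (SD, n = 13) in Landrace and 15.5 ± 2.21 CPM (SD, n = 8) in Duroc, so the spread between boars was also wider in Landrace. The log2 fold change of Duroc over Landrace was -1.40 (standard error 0.23, 95% interval -1.87 to -0.92), a 2.63-fold lower level, and edgeR's quasi-likelihood test gave it an adjusted p of 6.78e-04. In this comparison 2.88% of 13126 tested genes were called, 1.53% as lower and 1.35% as higher in Duroc, and KIT ranked 61 by p. Groups that did not overlap were found for 0.282% of the tested genes. In the two-sided exact permutation test over 203490 assignments of the boars, p was 3.44e-05 for KIT.

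The KIT level differed among Landrace boars as well. In the low group of contrast (i) it was 52.4 CPM in L1, 62.0 in L2, 26.6 in L3 and 24.0 in L4, and in the high group 21 in L5, 37.5 in L6, 33.1 in L7 and 34.5 in L8. In the remaining boars of contrast (iii) it was 83.9 in L9, 24.7 in L10 and 68.1 in L12 of the low group, and 38.0 in L13 and 33.2 in L15 of the high group. The highest values were those of L9, L12, L2 and L1, all of low groups, but L3, L4 and L10 of low groups were among the lowest Landrace boars. In Duroc the level was 19.3 in D1, 13.9 in D2, 13.9 in D3, 13.1 in D4 and 15.6 in D5 of the boars labelled high, and 18.4 in D6, 14.8 in D7 and 15.3 in D9 of those labelled low. By group mean the order from the lowest was Duroc labelled high (15.2 ± 2.5 CPM, n = 5), Duroc labelled low (16.2 ± 1.90, n = 3), Landrace high at day 0 (31.6 ± 7.24, n = 4), Landrace high change (34.8 ± 2.76, n = 3), Landrace low at day 0 (41.2 ± 18.8, n = 4) and Landrace low change (59.7 ± 25.1, n = 4). The values of each Landrace group overlapped those of its neighbour in this order, as did the 2 Duroc groups, and only the step from Duroc to Landrace was free of overlap. The high groups of Landrace share L7 and the low groups share L2, so their overlap was given in advance. Their other boars overlapped too, since L15 (33.2) lay below L6 (37.5) and L10 (24.7) below L1 (52.4).

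**Figure D2:**
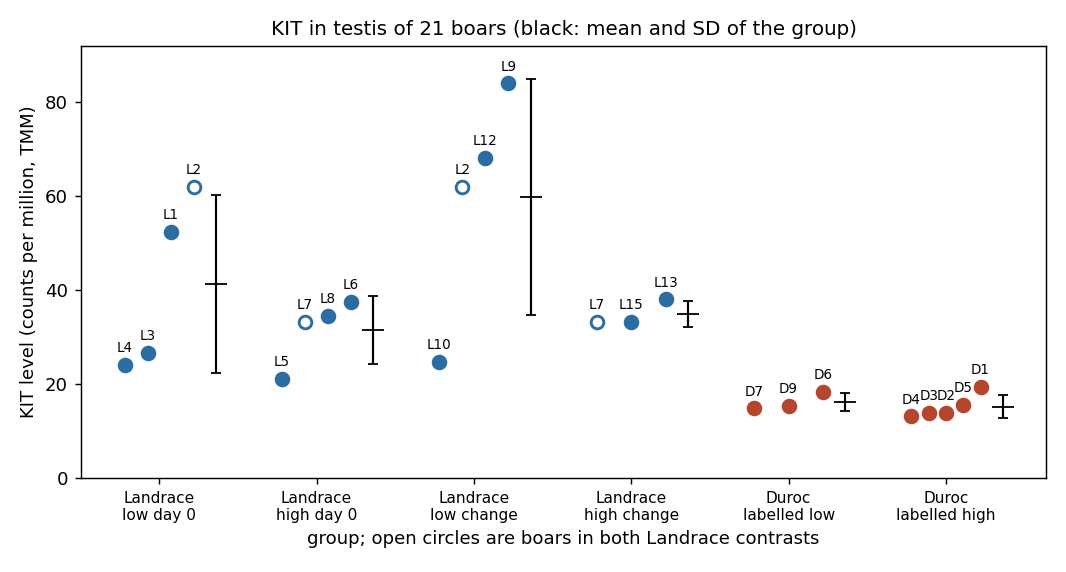
KIT level of each boar in CPM, by breed and hyperactivity group, with the mean and SD of each group in black and boars of both Landrace contrasts as open circles. All 8 Duroc boars lie between 13.1 and 19.3 CPM, below the lowest Landrace boar at 21 CPM, and the widest spread is in the low change group of Landrace.

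KIT remained called in all 21 fits that each left out 1 boar, with log2 fold changes from -1.46 to -1.28 and adjusted p-values from 3.46e-04 to 0.00247 (edgeR's quasi-likelihood test). Within day 0 boars of 1 label the difference kept its direction but missed the threshold. It was -1.35 (adjusted p = 0.0577 by edgeR) with the 3 Duroc and 4 Landrace boars labelled low, and -0.98 (adjusted p = 0.1 by edgeR) with the 5 Duroc and 4 Landrace boars labelled high. The study's table puts 7 of the 8 Duroc boars in the opposite group, so these fits may not hold the hyperactivity group constant.

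Genes beside KIT on chromosome 8 did not show the difference. Of the 10 neighbours listed, 7 were tested and 0 were called, and 5 of those 7 lay within 2 Mb of KIT. The log2 fold changes of these 5 were 0.14 for SCFD2, -0.10 for LNX1, 0.11 for CHIC2, 0.19 for PDGFRA and 0.24 for KDR. PDGFRA and KDR, the receptor tyrosine kinase genes on either side of KIT, had 95% intervals of -0.16 to 0.54 and -0.28 to 0.76, neither of which reached the interval of KIT. TMEM165 (0.10) and CLOCK (0.24, adjusted p = 0.179 by edgeR's quasi-likelihood test) lay 13.3 and 13.4 Mb away on this assembly. Before adjustment, 1 of these 7 genes, CLOCK, had a p under 0.05, and 12.3% of all tested genes did.

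**Figure D3:**
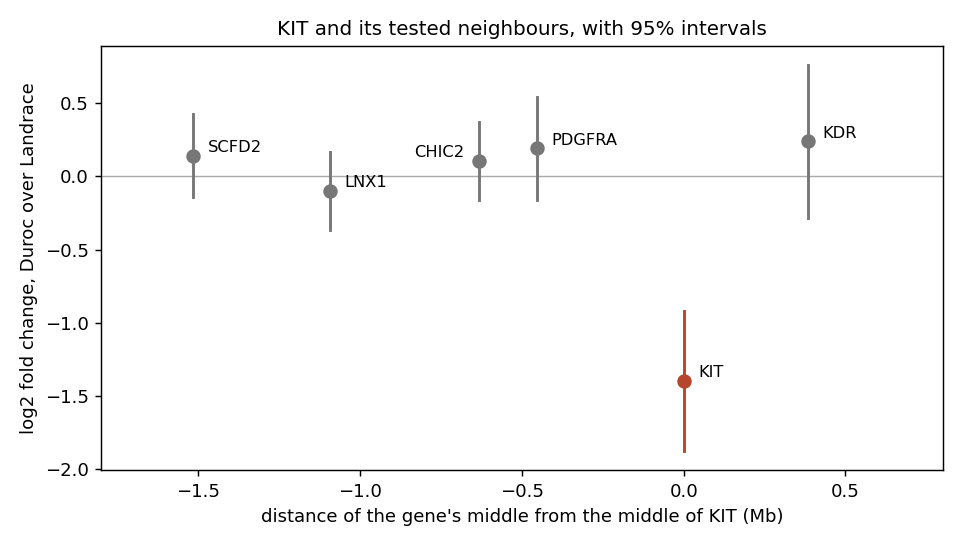
Log2 fold change of Duroc over Landrace for KIT (red) and the 5 tested genes within 2 Mb (grey), by distance from KIT in Mb, with 95% intervals as vertical lines. KIT lies at -1.40, and the 5 neighbours lie between -0.10 and 0.24.

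Markers of the other testis cells that make KIT were not called lower in Duroc, nor was its ligand. KITLG, the KIT ligand made by Sertoli cells, was at 38.1 ± 14.0 CPM (SD, n = 13) in Landrace and 41.8 ± 8.23 CPM (SD, n = 8) in Duroc (log2 fold change 0.15, adjusted p = 0.955 by edgeR). The sum of 3 mast cell markers, HDC, MS4A2 and GATA2, had a median of 3.68 CPM (1.49 to 8.46) in Landrace and 6.34 CPM (3.79 to 8.03) in Duroc, the opposite direction to KIT, and 0 of the 2 tested were called. The sum of the Leydig cell markers had a median of 1806 CPM in Landrace and 1479 CPM in Duroc, with values that overlapped widely, and 0 of 6 were called. The means of this sum ran the other way, at 1905 CPM in Landrace and 2032 CPM in Duroc. Of the 6 markers 4 were on the higher side in Duroc. Within breeds the KIT level had a Spearman correlation of -0.10 with the mast cell sum and of -0.02 with the Leydig cell sum over the 21 libraries, a description only, since both come from the same libraries.

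In the breed comparison 5 of the 6 tested members were on the higher side in Duroc and only KIT was lower, with a median log2 fold change of 0.05 over the 6 and of -0.01 over all tested genes. RET had a lowest value of 0.414, a median of 1.02 and a highest value of 1.67 CPM in Landrace, and of 0.487, 1.49 and 2.40 CPM in Duroc. The breeds overlapped, although 3 of 8 Duroc boars were above every Landrace boar. Duroc exceeded Landrace by 0.55 on the log2 scale (standard error 0.27), with an adjusted p of 0.406 by edgeR's quasi-likelihood test and an exact permutation p of 0.0755. STRA8 had a lowest value of 1.01, a median of 1.81 and a highest value of 2.94 CPM in Landrace, and of 1.95, 2.20 and 2.92 CPM in Duroc. The breeds overlapped, and the difference was 0.32 on the log2 scale (standard error 0.17), with an adjusted p of 0.485 by edgeR and an exact permutation p of 0.0238. The mast cell sum, which followed STRA8 from boar to boar (Spearman correlation 0.71 within breeds, n = 21), was on the higher side in Duroc too, and its part was not tested.

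ZBTB16, UCHL1 and DMRT1 differed little between the breeds. ZBTB16 was at 10.6 ± 1.76 CPM in Landrace (n = 13) and 11 ± 2.60 CPM in Duroc (n = 8), a log2 fold change of 0.08 with a 95% interval of -0.22 to 0.37. UCHL1 was at 2.53 ± 0.706 and 2.55 ± 0.539 CPM, a log2 fold change of 0.03 with an interval of -0.36 to 0.41. DMRT1 was at 47.2 ± 8.60 and 47.2 ± 9.34 CPM, a log2 fold change of 0.02 with an interval of -0.22 to 0.25. A difference as large as that of KIT lay outside each of these intervals. GFRA1 did not reach 1 CPM in enough libraries to be tested with the others. With a filter of 0.1 CPM its log2 fold change was 0.70 (standard error 0.30, p = 0.0273, adjusted p = 0.293 by edgeR), from 0.571 ± 0.265 CPM in Landrace to 0.921 ± 0.472 CPM in Duroc, and the exact permutation p was 0.0485. The breed differences of GFRA1, RET and STRA8 moved most between day 0 boars of 1 label. Among boars labelled low they were 0.18, 0.29 and 0.16, and among boars labelled high 0.98, 0.81 and 0.58, none of them called. By the study's table, these fits set opposite hyperactivity groups against each other for 7 of the 8 Duroc boars. With the same filter, in which 3.08% of 16559 genes were called, NANOS3 had a log2 fold change of 0.34 with an interval of -0.76 to 1.44.

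Of further genes of the same cells and pathways, taken from lists, none was called between the breeds outside the Sertoli cell markers. Of 24 other genes of undifferentiated spermatogonia 13 were tested and 0 were called. The nearest to the threshold was LHX1, a transcription factor gene downstream of GDNF, at 8.55 ± 3.14 CPM in Landrace and 4.49 ± 1.93 CPM in Duroc (log2 fold change -0.91, adjusted p = 0.0535 by edgeR's quasi-likelihood test). Of 10 other genes of differentiating spermatogonia 7 were tested and 0 called. GDNF itself ranged from 0.15 to 0.819 CPM over all boars and was not tested, and of the other GDNF family genes GFRA2 (0.31) and GFRA3 (0.05) were tested and not called. None of the 17 tested genes of the retinoic acid pathway, the 7 tested niche growth factor genes and the 7 tested cell division markers were called. Before adjustment p by edgeR was under 0.05 for LHX1, TSPAN33, BCL6B, CXCL12, CXCR4 and RARB, and for 12.3% of all genes tested between the breeds. Whether these lists differed from that share was not tested. Among Sertoli cell markers 1 of 8 was called, GATA4, a transcription factor gene that was higher in Duroc at 23.1 ± 3.83 CPM against 13.9 ± 3.59 CPM (log2 fold change 0.74, adjusted p = 0.00692 by edgeR). Of all genes tested between the breeds 2.88% were called.

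Contrast (i) asked which genes differed between boars with high and low hyperactivity at day 0. None of the 6 tested members was called, although 2682 of 12979 genes, or 20.7%, were. Of those calls 76.7% were lower in the high group, a share that was 70.8% with relative log expression factors and 95.9% with library totals alone, which moved the median of all genes from 0.03 to -0.12. The study states the opposite balance for its own calls in this contrast, with most of them higher in the high group. The cause of this difference was not tested. Of all tested genes 15.8% were called lower and 4.82% higher. No tested member had an unadjusted p under 0.05, against 41.7% of all tested genes, and neither a likelihood ratio test nor DESeq2 called one. The member with the smallest p was KIT, at 41.2 ± 18.8 CPM in the low group and 31.6 ± 7.24 CPM in the high group (n = 4 each), with a log2 fold change of -0.46 and a 95% interval of -1.09 to 0.18 (adjusted p = 0.246 by edgeR), which was -0.24 without L2. RET was at 1.15 ± 0.448 and 0.869 ± 0.5 CPM, a log2 fold change of -0.47 with an interval of -1.45 to 0.50, and it passed the filter in 4 of the 8 fits that left out 1 boar, with values from -0.74 (without L4) to -0.23 (without L8). DMRT1, at 40.7 ± 4.88 and 48.9 ± 7.44 CPM, was the only tested member with a fitted log2 fold change above 0. It was 0.20 with an interval of -0.13 to 0.52, and 0.10 without L7. ZBTB16 was at -0.07, UCHL1 at -0.15 and STRA8 at -0.23. The mean CPM of ZBTB16 did not share this sign, at 10.24 in the low group and 10.27 in the high group. The groups overlapped for every member, whereas they did not for 31.4% of the genes tested at 1 CPM and 28.1% of those tested at 0.1 CPM. The sum of spermatocyte markers moved with the groups, at 1263 to 1715 CPM in the low group and 1822 to 2725 CPM in the high group, although 0 of the 8 were called, and its part in the values of RET, which ran against this sum from boar to boar, was not tested.

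Some genes of the lists were called in contrast (i), in which 15.8% of all tested genes were called lower and 4.82% higher. ID4, an inhibitor of differentiation that marks spermatogonial stem cells, was higher in the high group, at 17.5 against 10.8 CPM on average (log2 fold change 0.62, adjusted p = 0.0467 by edgeR), and was the only gene called among 13 tested of undifferentiated spermatogonia. Its call held in 1 of the 8 fits that left out 1 boar. Of 7 tested genes of differentiating spermatogonia, 2 were lower, REC8, a meiotic cohesin gene, at 27.2 against 51.2 CPM (-0.98, adjusted p = 0.0225 by edgeR), and MEIOSIN, which acts with STRA8 in meiotic entry, at 0.614 against 1.49 CPM (-1.35, adjusted p = 0.038 by edgeR). The mean of MEIOSIN in the high group lay below the filter of 1 CPM. Of the 7 genes 4 were on the higher side and 3 on the lower, with a median of 0.35 against 0.03 over all genes. KITLG was counted both among these 7 and among the niche genes. Of 17 tested retinoic acid genes 3 were lower, the receptor genes RARA (-1.31, adjusted p = 0.0209) and RXRB (-0.89, adjusted p = 0.0293) and STRA6, a retinol transporter gene (-1.32, adjusted p = 0.0302, all by edgeR's quasi-likelihood test), a share near that of all genes called lower, and the median over the 17 was -0.24 against 0.03 over all genes. Of 7 tested cell division markers 4 were on the higher side, with a median of 0.17 over the 7. Only MCM5 was called, as lower (-1.45, adjusted p = 0.0288 by edgeR), and none of the 2 tested GDNF family and 6 tested niche genes were called. Peritubular cell markers moved with these genes, since 2 of the 4 tested were lower (MYH11 and DES) and their sum was 47.9 to 103 CPM in the low group and 17.6 to 63.0 CPM in the high group. Of 7 tested spermatid markers 3 were called lower (PRM1, TNP2 and TSSK6). Another 3 were on the higher side without a call (ACRV1 at 0.46, SPACA1 at 0.39 and TNP1 at 0.21). The spermatid sum had a mean of 8129 CPM in the low group and 8852 CPM in the high group. The part of these cells in the calls was not tested. None of the 7 calls named here from ID4 to MCM5 held in every fit that left out 1 boar. REC8 and RARA held in 6 of 8 fits, MCM5 in 5, RXRB and STRA6 in 3, and MEIOSIN in 1 of the 4 fits in which it passed the filter. The highest adjusted p by edgeR over these fits was 0.153 for ID4, 0.0704 for MEIOSIN, 0.0703 for MCM5, 0.0676 for RXRB, 0.0645 for STRA6, 0.0548 for REC8 and 0.0545 for RARA. Without L3, or without L6, 1 gene of all was called. Without both L2 and L7, ID4, MEIOSIN and STRA6 were no longer called (adjusted p = 0.124, 0.052 and 0.0511 by edgeR), and with all 21 libraries in 1 fit none of the 7 was. ID4 was not called with the 0.1 CPM filter or with library totals alone either (adjusted p = 0.0515 and 0.112 by edgeR).

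Contrast (iii) compared boars with a high and a low change in hyperactivity over 96 h. None of the 6 tested members and none of the 12824 tested genes (0%) was called by edgeR's quasi-likelihood test, while 2540 genes, or 19.8%, had an unadjusted p under 0.05. A likelihood ratio test called 64 genes and DESeq2 116, none of them a member. KIT was at 59.7 ± 25.1 CPM in the low group (n = 4) and 34.8 ± 2.76 CPM in the high group (n = 3), a log2 fold change of -0.79 (standard error 0.33, unadjusted p = 0.0357, adjusted p = 0.245 by edgeR). The groups overlapped because L10 was below the 3 boars of the high group, and the exact permutation p was 0.2. ZBTB16 (0.22), RET (0.23), STRA8 (0.19) and DMRT1 (0.22) were on the higher side and UCHL1 (-0.23) on the lower, all with 95% intervals that covered 0. Without L13, the boar that stood apart in Sertoli cell, macrophage and nerve markers, ZBTB16 was at 0.075 and DMRT1 at 0.067. RET was at -0.033 without L7, and without L15 UCHL1 was at 0.064 and STRA8 at 0.096.

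GFRA1 was the only detected member whose groups did not overlap in contrast (iii). Its level was 0.533 CPM in L2, 0.581 in L9, 0.396 in L10 and 0.357 in L12 of the low group, and 1.03 in L7, 1.16 in L13 and 0.730 in L15 of the high group. The means were 0.467 ± 0.107 CPM (n = 4) and 0.972 ± 0.219 CPM (n = 3), and the exact permutation p was 0.0286, the smallest that 3 boars against 4 allow. With the filter of 0.1 CPM the log2 fold change was 1.05 (standard error 0.35, 95% interval 0.27 to 1.82, unadjusted p = 0.0126), and the adjusted p over 16135 genes was 0.259 by edgeR's quasi-likelihood test. Groups did not overlap for 14.9% of the genes of that filter and for 16.4% of those tested at 1 CPM. The value lay between 0.90 and 1.21 in the 7 fits that left out 1 boar. The sum of mast cell markers did not overlap either, with 2.04 to 3.96 CPM in the low group and 4.66 to 8.46 CPM in the high group, and its part in the result was not tested.

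**Figure D4:**
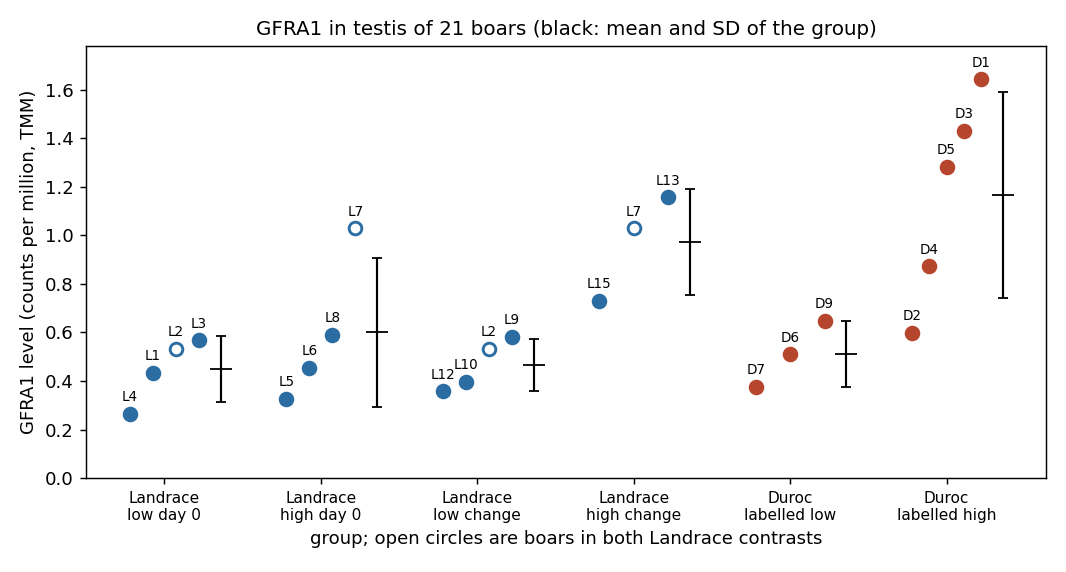
GFRA1 level of each boar in CPM, by breed and hyperactivity group, with the mean and SD of each group in black and boars of both Landrace contrasts as open circles. The 3 Landrace boars with a high change lie from 0.730 to 1.16 CPM, above the 4 with a low change at 0.357 to 0.581 CPM, and 4 of the 5 Duroc boars labelled high lie above the 3 labelled low.

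In contrast (i), GFRA1 was at 0.432 CPM in L1, 0.533 in L2, 0.567 in L3 and 0.265 in L4 of the low group, and 0.326 in L5, 0.455 in L6, 1.03 in L7 and 0.589 in L8 of the high group. The groups overlapped, and L7 of the high group had the highest value. The log2 fold change with the 0.1 CPM filter was 0.36 (standard error 0.44, adjusted p = 0.555 by edgeR; 17.3% of 16288 genes were called), and it was -0.04 without L7. Since L7 and L2 take part in both contrasts, the values of contrasts (i) and (iii) are not independent.

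In Duroc, none of the 6 tested members and none of 13043 genes (0%) was called between boars labelled high and low, and 158 genes, or 1.21%, had an unadjusted p under 0.05, none of them a member. DESeq2 and the likelihood ratio test called 0 genes as well. KIT was at 15.2 ± 2.5 CPM in boars labelled high and 16.2 ± 1.90 CPM in those labelled low, a log2 fold change of -0.05 with a 95% interval of -0.50 to 0.39. ZBTB16 (-0.02), RET (0.06), UCHL1 (-0.10), STRA8 (0.22) and DMRT1 (0.21) had intervals that covered 0, the widest being that of RET, from -0.99 to 1.11. With 1 boar left out, STRA8 ran from 0.13 to 0.35 and DMRT1 from 0.11 to 0.40. GFRA1 was at 1.64 CPM in D1, 0.599 in D2, 1.43 in D3, 0.873 in D4 and 1.28 in D5 of the boars labelled high, and 0.510 in D6, 0.377 in D7 and 0.648 in D9 of those labelled low. Thus 4 of the 5 labelled high were above all 3 labelled low, and D2 was within their range, while groups did not overlap for 1.38% of the genes tested at 0.1 CPM and 1.3% at 1 CPM. With the 0.1 CPM filter the log2 fold change was 1.21 (standard error 0.45, unadjusted p = 0.02, adjusted p = 1 by edgeR), and the exact permutation p was 0.0536. It was 1.17 without D5, the boar for which the labels and the study's table give the same group. For the other 7 boars the study's table turns this direction around. The sum of mast cell markers was 6.11 to 8.03 CPM in boars labelled high and 3.79 to 5.68 CPM in those labelled low, and its part was not tested. The sum of spermatid markers did not overlap either, at 7826 to 8971 CPM in boars labelled high and 7154 to 7645 CPM in those labelled low. Its part was not tested.

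**Figure D5:**
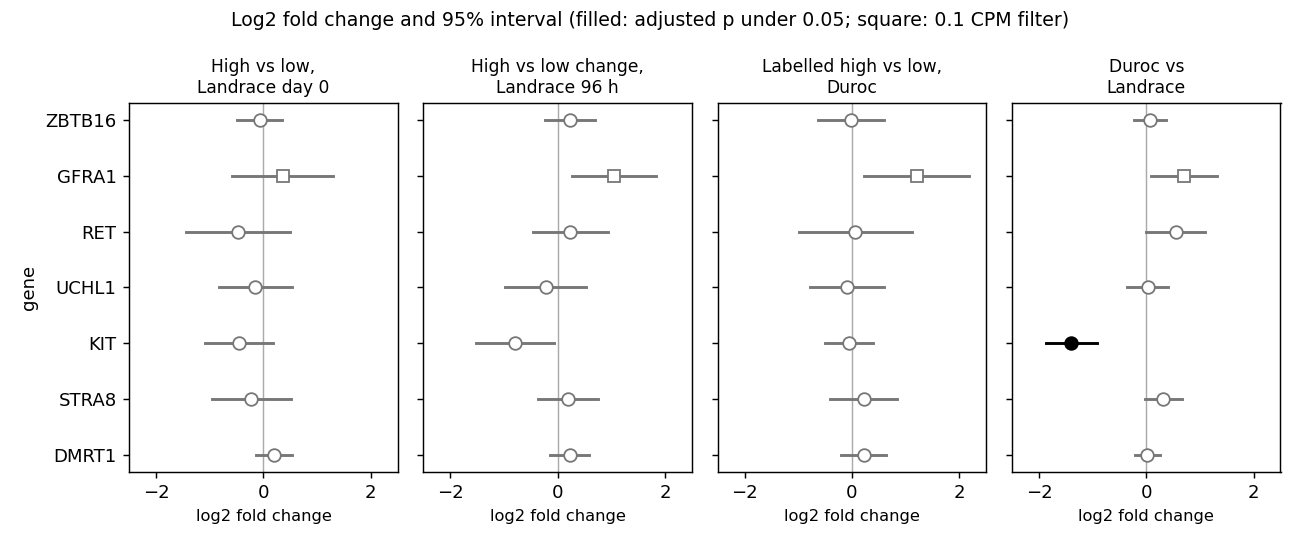
Log2 fold change (circles) with 95% interval (lines) of 7 genes in the 4 comparisons. GFRA1 (square) comes from the fit with a 0.1 CPM filter. Only KIT in Duroc against Landrace has an adjusted p under 0.05 (filled), and the intervals of GFRA1 lie above 0 in 3 of the 4 panels without passing adjustment.

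Whether the high against low difference at day 0 itself differed between the breeds was tested as an interaction over the 16 boars of contrast (i) and Duroc. The Duroc groups were again those of the labels, which the study's table gives the other way for 7 of the 8 boars. With the groups of that table the size of each value would change, not its sign alone, and this was not tested. None of the 6 members and none of 12920 genes (0%) was called, with 15.1% of genes and none of the members at an unadjusted p under 0.05, and the likelihood ratio test called 3 genes, none a member. By the labels, the differences between the log2 fold changes of Duroc and Landrace were 0.37 for KIT, 0.51 for RET, 0.42 for STRA8, 0.03 for ZBTB16, 0.03 for UCHL1 and -0.01 for DMRT1. Their 95% intervals were wide, from -0.44 to 1.19 for KIT and from -0.94 to 1.97 for RET. With 1 boar left out, the differences ran from 0.17 to 0.61 for KIT, 0.29 to 1.05 for RET and 0.13 to 0.69 for STRA8. For GFRA1 the difference was 0.79 with an interval of -0.49 to 2.08 and the 0.1 CPM filter.

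Over the 4 comparisons between groups of boars, 32 exact permutation tests were made on 8 members, and the p-values given are not adjusted for their number. Those under 0.05 were KIT, STRA8 and GFRA1 between the breeds and GFRA1 in contrast (iii).

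The members differed in how much they varied from boar to boar. After the mean of each breed was subtracted, the standard deviation of log2 CPM over the 21 libraries was 0.26 for DMRT1, 0.27 for ZBTB16, 0.31 for STRA8, 0.38 for UCHL1, 0.51 for KIT and 0.59 for RET, against a median of 0.34 over all tested genes. DMRT1 and ZBTB16 were thus among the steadier genes, at percentiles 23.9 and 27.7, and RET among the more variable, at percentile 83.8. GFRA1 (0.65) and NANOS3 (0.90) varied most, on the lowest counts. Over the 28 pairs of the 8 detected members, the highest Spearman correlations were 0.55 between GFRA1 and STRA8, 0.52 between RET and NANOS3, 0.46 between ZBTB16 and GFRA1 and 0.42 between GFRA1 and its partner RET. The pairs of the 4 stem cell genes ZBTB16, GFRA1, RET and NANOS3 lay between 0.21 and 0.52. The highest value of KIT was 0.36 with UCHL1, and the lowest of all was -0.26 between RET and DMRT1. These are descriptions over 21 libraries, which share their depth and scaling across genes, and those of NANOS3 rest on few counts.

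The levels of other genes followed some members more closely. RET was most like FAM234B (Spearman correlation 0.87) and NIBAN3 (0.87), and DMRT1 most like ACTG1 (0.87) and SERBP1 (0.87), among 13125 other genes. ZBTB16 was most like MAVS (0.80), UCHL1 most like an unnamed gene, ENSSSCG00000033189 (0.78), and FRRS1L (0.78), and STRA8 most like CCK (0.72). KIT had the weakest best match, 0.67 with the unnamed gene ENSSSCG00000026140. Among summed markers of other cells, RET had correlations of 0.74 with peritubular cells and of -0.70 with spermatocytes, STRA8 had 0.71 with mast cells, NANOS3 had 0.66 with peritubular cells and -0.58 with spermatocytes, UCHL1 had 0.61 with endothelial and 0.54 with Leydig cells, DMRT1 had 0.59 with nerve and Schwann cells and 0.54 with Sertoli cells, and GFRA1 had 0.59 with mast cells and 0.56 with endothelial cells. ZBTB16 had 0.49 with peritubular cells and -0.51 with spermatids, and no sum reached 0.24 in size with KIT.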

How the data were processed

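Testis RNA of 21 boars, 1 library each, was analysed. The authors trimmed the reads with Trimmomatic 0.36, mapped them to Sscrofa11.1 with STAR, counted them per Ensembl gene with HTSeq in reverse stranded mode and deposited the raw counts of 25880 genes per boar without normalization. Lines that name no gene (no feature, ambiguous or not unique) held 29.4 to 39.0% of the counted reads per library and were left out. Symbols came from an identifier table that named 14857 of the identifiers, and positions from RefSeq by symbol. The members and lists were chosen with earlier results of these data known. All members are named, and of each list at most the 3 smallest p-values in each direction, besides neighbours of KIT and genes named after their values were seen (GDNF, KITLG, TMEM165). For likeness, the genes with the highest Spearman correlation of log2 CPM after removal of breed means were taken.

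Groups followed the labels. Each comparison was fitted alone in R 4.3.3 with edgeR 4.0.16 (quasi-likelihood test, TMM, Benjamini-Hochberg over all genes tested, threshold 0.05), after removal of genes that reached 1 CPM in fewer than 4 libraries (8 for breeds and the interaction). A standard error is the log2 fold change divided by the square root of its F value. Two-sided exact permutation tests used log2 CPM with a prior count of 2. The p-values set a group difference against the spread between boars and take the boars as independent. The labels do not say how boars were related, so this could not be checked. All pairs of libraries differed (log2 CPM correlated with r from 0.918 to 0.985 over 210 pairs). The fits were tested on simulated data. Alternatives were a likelihood ratio test, DESeq2 1.42.0, other scalings, filters, samples and prior counts, and leaving out each boar. The fits within 1 label and the repeats at 0.1 CPM for GFRA1 were chosen after seeing the data. No member's sequence was used.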

Additional observations from a re-analysis of the deposited data

Results flagged for a closer look

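Within groups of 4 to 10 boars, 3 values of 40 group and gene combinations stood apart from the rest of their group by the size of the gap to the nearest boar, where chance gives about 2. STRA8 in boar D4 was at 2.92 CPM, while the next boar was at 2.38 CPM, and this held both among the 5 Duroc boars labelled high and among all 8 Duroc boars. Without D4, the log2 fold change of STRA8 between the breeds was 0.26 in place of 0.32. NANOS3 in boar D9 was at 0.286 CPM, or 15 counts, while the next Duroc boar was at 0.144 CPM.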

How the results depend on the processing

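KIT between the breeds was called under 7 of 9 other settings, the exceptions being the 2 fits on day 0 boars of 1 label, chosen after the data had been seen, in which 123 genes (labelled low) and 32 genes (labelled high) but 0 members were called. In the other comparisons 0 members were called under any setting. Counts over all genes moved more. Contrast (i) had 1 called gene when all 21 libraries were in 1 fit, and from 1 (without L3 or L6) to 3764 (without L5) when 1 boar was left out. Contrast (iii) had 64 called genes with the likelihood ratio test, 116 with DESeq2 and 1 without a filter, and from 0 to 2 with 1 boar left out. Duroc had 0 to 2, breed 286 to 491 and the interaction 0 to 1 with 1 boar left out, and the interaction 3 with the likelihood ratio test. The cause of these moves was not tested.

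Signs turned for differences that were not called. Between the breeds, UCHL1 was at -0.022 in 1 fit over all 21 libraries, -0.042 in boars labelled low and -0.015 in boars labelled high, and DMRT1 was at -0.048 in 1 fit. In the interaction, ZBTB16 was at -0.025 and UCHL1 at -0.015 with the 0.1 CPM filter, and DMRT1 at 0.14 with library totals alone. With 1 boar left out, the ranges that crossed 0 were -0.20 to 0.073 for ZBTB16, -0.34 to 0.0054 for UCHL1, -0.44 to 0.075 for STRA8 and -0.038 to 0.59 for GFRA1 in contrast (i), -0.033 to 0.44 for RET and -0.48 to 0.064 for UCHL1 in contrast (iii), -0.22 to 0.23 for ZBTB16, -0.25 to 0.29 for RET, -0.26 to 0.11 for UCHL1 and -0.22 to 0.012 for KIT in Duroc, -0.012 to 0.14 for ZBTB16, -0.040 to 0.089 for UCHL1 and -0.036 to 0.065 for DMRT1 between breeds, and -0.15 to 0.26 for ZBTB16, -0.10 to 0.22 for UCHL1 and -0.13 to 0.24 for DMRT1 in the interaction. A prior count of 0.5 moved none of the 32 exact permutation tests across 0.05. No paired analysis was possible because the boar numbers only name animals and no boar is shared by 2 groups of a comparison. Depth limits NANOS2, NANOS3 and, in part, GFRA1.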
